A study of Mus musculus with 2 samples.

Results

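The enzymes that carry glucose to lactate were measured in newborn mouse skeletal muscle as 32 genes, which cover each enzyme step of glycolysis, the bifunctional enzymes of fructose 2,6-bisphosphate, fructose bisphosphatase, and the carriers of glucose and lactate. They were chosen by name, as isozymes and transporters of the pathway, and found by Ensembl ID in the gene tables of both pups, among 43346 gene IDs. The rule for the choice uses no measured value. All 32 were found, and 31 held reads.

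The RNA came from skeletal muscle of pups of the B6NCrl strain on postnatal day 0, with no treatment or mutation named in the labels. There was 1 group of 2 biological replicates, pup 1 (replicate 1) and pup 2 (replicate 2) from 1 pregnancy, so there was no comparison between conditions. The labels name neither the muscle nor the sex and give both samples the same donor entry, so the spread between the pups may be partly technical. Values are TPM, a level corrected for transcript length and scaled to the same sum in each file, with mean ± SD over n = 2, and positions are those of GENCODE M21 on mm10.

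Glycolysis splits glucose into a pair of 3-carbon sugars and oxidises them to pyruvate, and lactate dehydrogenase turns pyruvate to lactate where oxygen or mitochondria cannot keep pace. Many of its steps can be run by several isozymes from separate genes, and adult fast muscle is known for its own set of them, among them PFKM, PGAM2, ENO3 and the M1 form of pyruvate kinase. Fetal and proliferating cells are known instead for forms such as ENO1, PGAM1 and the M2 form of pyruvate kinase.

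The files held 40455042 estimated counts for pup 1 and 37151129 for pup 2, and 12495 protein-coding genes averaged at least 1 TPM. The fibre markers Acta1, Ckm, Tnnt3, Myh8 and Atp2a1 summed to 81053.7 TPM in pup 1 and 91660.5 in pup 2, so markers of the labelled tissue were abundant in both. The libraries stood apart in other tissues. The 6 epidermal markers summed to 614.76 TPM in pup 1 and 10.93 in pup 2, the 7 adipocyte markers to 4983.99 and 888.77 TPM, and the 6 cartilage markers to 42.38 and 1.04 TPM in pups 1 and 2.

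The 32 genes together held 28459.7 TPM in pup 1 and 28684.3 TPM in pup 2, which was 2.85% and 2.87% of all TPM. Their median level was 54.3 TPM, against 11.8 TPM over all 12495 expressed protein-coding genes. Of the 32 genes, 15 averaged at least 100 TPM and 8 at least 1000 TPM, and 11 were under 10 TPM. Among the 12495 expressed protein-coding genes, 1151 averaged at least 100 TPM, 104 at least 1000 TPM, and 5728 were under 10 TPM. The 8 of the pathway at 1000 TPM or more were Aldoa, Gapdh, Eno3, Pgam2, Ldha, Tpi1, Pkm and Eno1. They held 26391.8 TPM in pup 1 and 26640.1 in pup 2, nearly all of the summed level. In 19 of the 32 genes the SD was under 10% of the mean. No share of all genes was taken for this count, so it is a description only.

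**Figure D1:**
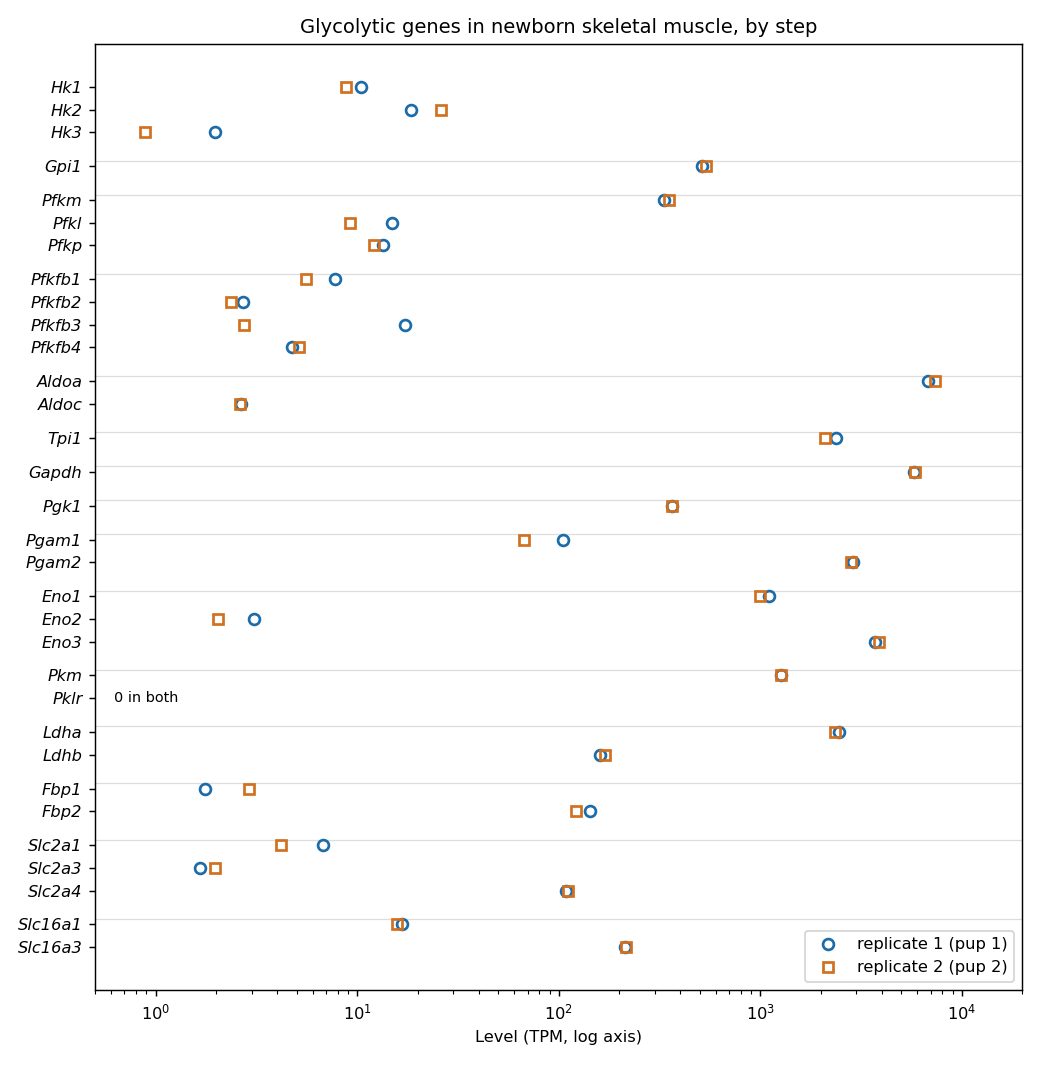
Level of each of the 32 genes in TPM (log axis), grouped by step in pathway order, with a circle for pup 1 (replicate 1) and a square for pup 2 (replicate 2). Aldoa and Gapdh stand highest in both pups, the symbols nearly coincide for most genes over 100 TPM, Pfkfb3 shows the widest gap, and Pklr had 0 counts in both.

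Of the 15 steps, 11 were covered by several genes, and in 10 of these the same gene held the largest part of the step's summed TPM in both pups. In 8 of the 11 the leading gene held at least 90% of the genes counted here in both, although for glucose transporters this holds only among the 3 carriers included. The exceptions were hexokinase and enolase, where a second gene took a sizeable part, and the bifunctional enzymes, whose leading gene differed between the pups. By summed level the steps ran from aldolase, the highest at 7077 ± 395 TPM, through the Gapdh step at 5833 ± 48 TPM and enolase at 4854 ± 40.8 TPM, down to hexokinase at 33.3 ± 3.52 TPM and the bifunctional enzymes at 24.2 ± 11.8 TPM. These last 2 steps were the lowest of the 15, with 30.9 TPM for hexokinase and 32.5 TPM for the bifunctional enzymes in pup 1, and 35.8 and 15.8 TPM in pup 2, and both pups had the 3 highest steps in the same order.

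**Figure D2:**
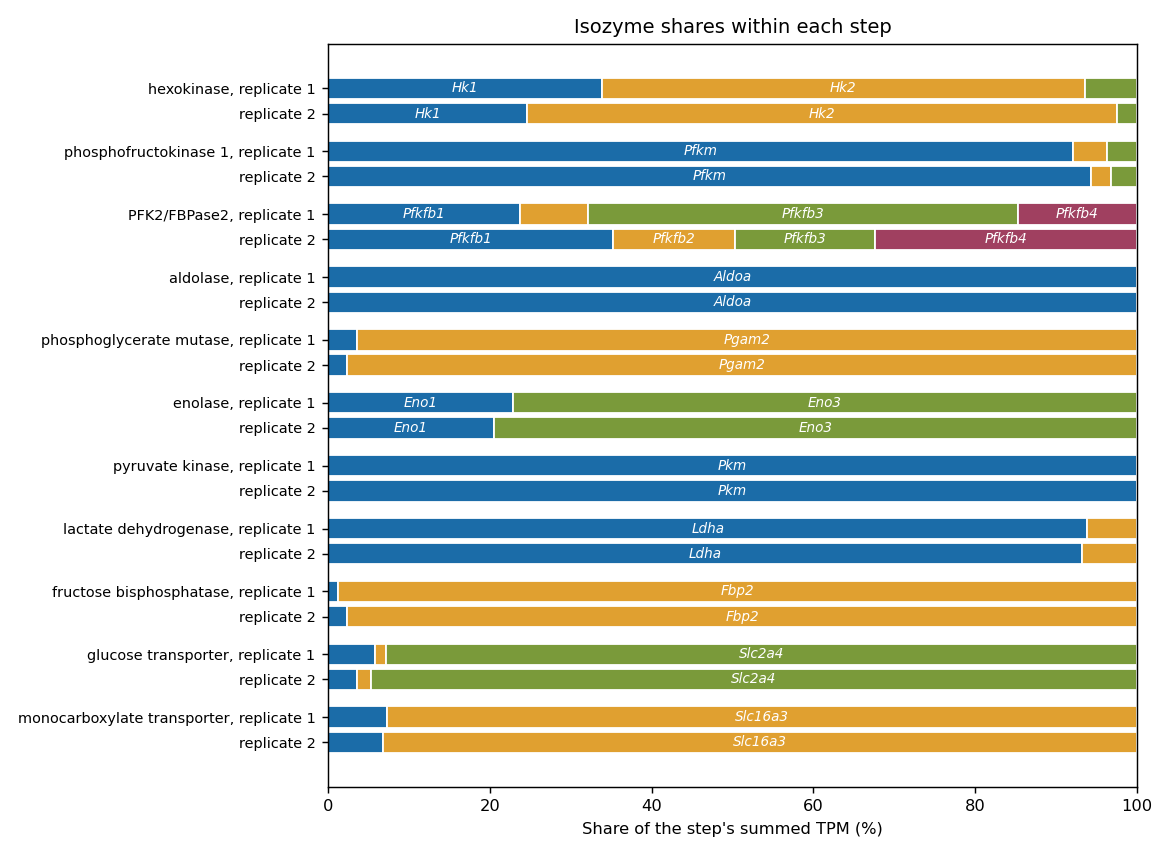
Share of each gene in the summed TPM of its step (percent), for the 11 steps with several genes, with one bar for pup 1 (replicate 1) and one for pup 2 (replicate 2) per step. A leading gene fills at least 90% of both bars in 8 steps, while hexokinase, enolase and the PFK2/FBPase2 step are divided among several genes.

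Glucose enters muscle fibres through the facilitative carriers of the SLC2A family. Slc2a4, which encodes the insulin-responsive carrier GLUT4 (chromosome 11, 69942539 to 69948188), was at 109 TPM in pup 1 and 111 TPM in pup 2. Slc2a1, the carrier GLUT1 of most cells, was at 6.79 TPM in pup 1 and 4.20 TPM in pup 2, and Slc2a3, the high-affinity carrier GLUT3 known from neurons, was at 1.65 and 1.98 TPM. Of the summed level of these 3 genes, GLUT4 transcripts made up 92.8% in pup 1 and 94.7% in pup 2. Over 11 genes of the family, among them Slc2a8 at 9.61 TPM in pup 1 and 7.42 in pup 2, they made up 78.8% and 82.9%. Among the handlers of GLUT4 traffic, Tbc1d4 was at 14.6 TPM in pup 1 and 15.1 in pup 2, and Rab10 was at 106 and 96.5 TPM.

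Hexokinase traps glucose in the cell as glucose 6-phosphate. Hk2, the insulin-responsive form of adult muscle (chromosome 6, 82725025 to 82774454), was at 18.4 TPM in pup 1 and 26.1 TPM in pup 2. Hk1, the form found in most tissues (chromosome 10, 62268855 to 62379908), was at 10.4 TPM in pup 1 and 8.83 TPM in pup 2. Hk2 therefore held 59.8% of the step in pup 1 and 72.9% in pup 2. Hk3, known from myeloid cells, was at 1.98 TPM in pup 1 and 0.88 TPM in pup 2, from 165 and 67 counts. How far Hk2 leads Hk1 depended on its transcripts. A short non-coding model of 594 nt, Hk2-202, held 42.0% of Hk2's TPM in pup 1 and 55.3% in pup 2, but 6.31% and 10.2% of its counts. With transcripts of complete coding sequence alone, Hk2 was at 10.5 TPM in pup 1 and 11.6 in pup 2, against 10.1 and 8.77 TPM for Hk1, so that Hk2 held 46.9% of the step in pup 1 and 55.1% in pup 2. Hk2 was above Hk1 in both pups by TPM, by counts and by complete coding transcripts, in pup 1 by a small margin on the last.

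Gpi1, which turns glucose 6-phosphate to fructose 6-phosphate (chromosome 7, 34201330 to 34230336), was at 515 TPM in pup 1 and 538 TPM in pup 2. Phosphofructokinase 1 makes the committed step. Pfkm, its muscle subunit (chromosome 15, 98092589 to 98132451), was at 333 TPM in pup 1 and 354 TPM in pup 2. Pfkl, the liver subunit, was at 14.9 TPM in pup 1 and 9.23 in pup 2, and Pfkp, the platelet subunit, was at 13.5 and 12.1 TPM. Pfkm held 92.1% of the step in pup 1 and 94.3% in pup 2. Its transcripts came from 2 annotated starts, with Pfkm-202 at 67.7% in both pups and Pfkm-201 at 32.3% in both.

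The PFKFB enzymes make and break fructose 2,6-bisphosphate, the strongest known activator of phosphofructokinase 1. Pfkfb3, the form known as inducible and with the strongest kinase bias (chromosome 2, 11471433 to 11554077), was at 17.3 TPM in pup 1 and 2.74 TPM in pup 2. Pfkfb1, whose gene gives the liver and muscle forms, was at 7.72 TPM in pup 1 and 5.57 in pup 2. Pfkfb4, first known from testis, was at 4.77 TPM in pup 1 and 5.12 in pup 2, and Pfkfb2, known from heart, was at 2.71 and 2.37 TPM. Pfkfb3 led the step with 53.2% in pup 1, while in pup 2 Pfkfb1 led with 35.3%. In pup 2 the leader was Pfkfb4 by counts, with 44.3%, and with complete coding transcripts, with 41.4%. Pfkfb3 alone in this step differed by over 1.5-fold between the pups. Fructose bisphosphatase runs against phosphofructokinase 1. Fbp2, the muscle form (chromosome 13, 62836877 to 62858422), was at 143 TPM in pup 1 and 121 TPM in pup 2, while Fbp1, the form of liver and kidney, was at 1.76 and 2.90 TPM. Fbp2 thus held 98.8% of the step in pup 1 and 97.7% in pup 2.

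Aldolase splits fructose 1,6-bisphosphate. Aldoa, the muscle form (ENSMUSG00000030695.9, chromosome 7, 126795234 to 126800751, minus strand), was the highest of the 32 genes, with 6795 TPM in pup 1 and 7353 TPM in pup 2. It ranked 12 among all protein-coding genes by mean TPM, and Gapdh ranked 14. Aldoc, the brain form, was at 2.66 TPM in pup 1 and 2.63 in pup 2, so Aldoa held 99.96% in both. Most Aldoa transcripts began at 2 annotated starts. Aldoa-203 held 44.0% of its TPM in pup 1 and 47.3% in pup 2, and Aldoa-201, with a start farther downstream, held 39.0% and 35.3%. The DNA at both starts is shown because they supply most of the highest gene of the pathway. Each window holds the DNA before the start and the first bases after it, read from the minus strand, from RefSeq on GRCm38.p6, and capitals mark the letters CACGT or ACGTG (a motif known for HIF factors) and CAGCTG (a motif known for MYOD).
Aldoa-203 start, chr7:126800398-126800697: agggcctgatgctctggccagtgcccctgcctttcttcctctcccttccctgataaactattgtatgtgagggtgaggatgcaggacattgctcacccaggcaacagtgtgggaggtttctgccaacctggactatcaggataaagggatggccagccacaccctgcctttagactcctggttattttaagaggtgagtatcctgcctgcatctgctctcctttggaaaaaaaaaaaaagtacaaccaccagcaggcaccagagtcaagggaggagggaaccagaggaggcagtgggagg
Aldoa-201 start, chr7:126799205-126799504: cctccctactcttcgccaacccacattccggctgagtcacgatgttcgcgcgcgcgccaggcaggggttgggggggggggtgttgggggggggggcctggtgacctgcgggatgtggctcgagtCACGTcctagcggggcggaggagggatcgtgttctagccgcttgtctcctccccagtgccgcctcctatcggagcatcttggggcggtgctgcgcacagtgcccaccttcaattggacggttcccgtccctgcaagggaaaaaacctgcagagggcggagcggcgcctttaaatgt
The window of Aldoa-203 has neither motif, and that of Aldoa-201 has the stretch CACGT, at position -126 from its start. A further RefSeq window of Aldoa, not printed, has its start at 126799178. It holds CAGCTG at position 5 and CACGT at position -202 from that start.

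Triosephosphate isomerase, Tpi1 (chromosome 6, 124810586 to 124814296), equilibrates the 3-carbon sugars and was at 2367 TPM in pup 1 and 2101 TPM in pup 2. Gapdh, which oxidises glyceraldehyde 3-phosphate (chromosome 6, 125161715 to 125166467), was at 5799 TPM in pup 1 and 5867 TPM in pup 2. This level also rested on a short model. Gapdh-208, a non-coding transcript of 483 nt, held 65.4% of the TPM in pup 1 and 63.0% in pup 2, and 35.7% and 33.7% of the counts. Complete coding transcripts of Gapdh alone reached 1963 TPM in pup 1 and 2127 TPM in pup 2, below those of Eno3, at 3572 and 3689 TPM, so the rank of the Gapdh step depends on the short model. Gapdh also has 71 copies elsewhere in the genome with at least 95% identity to its coding sequence. These took 7.43% of the joint counts in pup 1 and 8.0% in pup 2. The split of shared reads is itself an estimate, so these shares do not bound the uncertainty of the Gapdh level.

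Phosphoglycerate kinase, Pgk1 (chromosome X, 106187100 to 106203699), makes the first ATP of the pathway and was at 365 TPM in pup 1 and 364 TPM in pup 2. Its processed copy Pgk1-rs7 on chromosome 12, identical over 1250 nt, was given 2428 counts in pup 1 and 2618 in pup 2, and the copies of Pgk1 together took 11.4% and 13.0% of the joint counts. The testis form Pgk2 had 0 counts in both pups. Phosphoglycerate mutase moves the phosphate to the second carbon. Pgam2, the muscle form (chromosome 11, 5801640 to 5803733), was at 2878 TPM in pup 1 and 2821 TPM in pup 2. Pgam1, the brain form present in most tissues (chromosome 19, 41911923 to 41918660), was at 105 TPM in pup 1 and 67.5 TPM in pup 2. Pgam2 held 96.5% in pup 1 and 97.7% in pup 2. The copy Pgam1-ps2 took 1.51% of the joint counts with Pgam1 in pup 1 and 5.26% in pup 2.

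Enolase was the step with the most even mix among the abundant enzymes. Eno3, the muscle form (chromosome 11, 70657202 to 70662513), was at 3721 TPM in pup 1 and 3879 TPM in pup 2, and Eno1, the form of most other cells (chromosome 4, 150236721 to 150248879), was at 1100 TPM in pup 1 and 1001 TPM in pup 2. Eno2, the neuronal form, was at 3.09 and 2.04 TPM. Eno3 thus held 77.1% of the step in pup 1 and 79.5% in pup 2, and Eno1 held 22.8% and 20.5%. An incomplete model of 773 nt, Eno1-205, took 34.4% of Eno1's TPM in pup 1 and 36.3% in pup 2. With complete coding transcripts alone Eno3 held 83.6% in pup 1 and 85.8% in pup 2.

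Pyruvate kinase makes pyruvate and the last ATP. Pkm (ENSMUSG00000032294.12, chromosome 9, 59656368 to 59679375, plus strand) was at 1268 TPM in pup 1 and 1270 TPM in pup 2. Pklr, the form of liver and red cells, had 0 counts in both pups. A floor of 3 counts per library would be 0.0806 TPM in pup 1 and 0.0852 TPM in pup 2, or up to 0.00635% and 0.00671% of the step, counting error only. Pkm makes its M1 form, known from adult muscle, heart and brain, or its M2 form, known from embryonic and dividing cells, by a choice between a pair of exons of 167 nt. They are printed from the mm10 genome because this choice is what sets the forms apart, and capitals mark the 64 positions where they differ.
Exon 9 of Pkm-202 (M1), chr9:59675029-59675195, plus strand: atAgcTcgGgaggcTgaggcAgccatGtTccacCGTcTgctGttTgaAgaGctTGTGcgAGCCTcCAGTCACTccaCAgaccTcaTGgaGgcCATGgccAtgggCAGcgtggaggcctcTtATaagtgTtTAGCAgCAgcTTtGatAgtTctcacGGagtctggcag
Exon 9 of Pkm-201 (M2), chr9:59675568-59675734, plus strand: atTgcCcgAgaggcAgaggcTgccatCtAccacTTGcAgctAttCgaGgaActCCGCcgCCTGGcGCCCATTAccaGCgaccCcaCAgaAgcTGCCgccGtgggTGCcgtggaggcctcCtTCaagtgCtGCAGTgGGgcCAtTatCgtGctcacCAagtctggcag
The exons are 61.7% identical. Pkm-202, with the upstream M1 exon, held 82.5% of Pkm's TPM in pup 1 and 85.9% in pup 2, from 73009 and 71988 counts. Pkm-201, with the downstream M2 exon, held 17.5% in pup 1 and 14.1% in pup 2, from 15443 and 11788 counts. The M1 form prevailed in both pups, with the M2 form as a clear minority. Which cells held each form cannot be told from bulk RNA and was not tested. Both models are 2432 nt long in the files, whereas Pkm-202 has 2041 nt in GENCODE M21, so the exon was assigned from M21 and the ends of the model in the files were not compared. Among factors known to act on this choice, Ptbp1, known to repress the M1 exon, was at 58.4 TPM in pup 1 and 40.3 in pup 2. Its relative Ptbp2 was at 12.3 and 13.0 TPM. Hnrnpa1 was at 176 TPM in pup 1 and 178 in pup 2, Hnrnpa2b1 at 411 and 330 TPM, Srsf3 at 204 and 152 TPM, and Rbm4 at 20.1 and 18.4 TPM. All 6 factors were above 10 TPM in both pups. By TPM Ptbp1, Hnrnpa2b1, Srsf3 and Rbm4 were higher in pup 1, while by scaled counts the log2 ratio of Rbm4 was -0.01.

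Lactate dehydrogenase joins A and B subunits into tetramers. Ldha, the muscle subunit (chromosome 7, 46841475 to 46855627), was at 2463 TPM in pup 1 and 2347 TPM in pup 2. Ldhb, the heart subunit, was at 161 TPM in pup 1 and 169 in pup 2, so Ldha held 93.9% of the step in pup 1 and 93.3% in pup 2. Lactate leaves cells through monocarboxylate transporters. Slc16a3, which encodes MCT4, the exporter of fast fibres (chromosome 11, 120948480 to 120960868), was at 213 TPM in pup 1 and 217 TPM in pup 2. Slc16a1, which encodes MCT1, known more for uptake, was at 16.7 TPM in pup 1 and 15.7 in pup 2. Slc16a3 held 92.7% in pup 1 and 93.3% in pup 2. Bsg, the chaperone that both need at the surface, was at 614 TPM in pup 1 and 497 in pup 2.

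The 5′ flanks of the genes were searched for 4 motifs on both strands. RefSeq windows were at hand for 30 of the 32 genes, 48 windows in all. ACGTG was in 21 of the 48 windows (43.75%), against 19.6% of 32851 windows of the same length over all genes. It was in 17 of the 30 genes, some with several windows, and no share of all genes was taken for this count. CAGCTG was in 16.7% of the windows, against 16.3% of all. TATAAA was in 8.33%, against 13.6% of all, and GGGCGG was in 47.9%, against 35.7% of all. The windows compared were not matched for base composition. The letters CACGTG hold ACGTG on both strands and count as a pair of matches. The Ldha window, printed because it holds the most ACGTG matches of the 48, has 5 of them, in 3 stretches, and its RefSeq start lies at 46845804, close to the start of Ldha-202 at 46845839. That of Pgam2, printed as an example of a muscle form with CAGCTG, has this motif at position -125 from its RefSeq start at 5803796. The quantified transcript Pgam2-201 starts farther downstream, at 5803733. Such a match is a description of the letters and not a site of binding, and several windows of a gene overlap.
Ldha, chr7:46845554-46845853, plus strand: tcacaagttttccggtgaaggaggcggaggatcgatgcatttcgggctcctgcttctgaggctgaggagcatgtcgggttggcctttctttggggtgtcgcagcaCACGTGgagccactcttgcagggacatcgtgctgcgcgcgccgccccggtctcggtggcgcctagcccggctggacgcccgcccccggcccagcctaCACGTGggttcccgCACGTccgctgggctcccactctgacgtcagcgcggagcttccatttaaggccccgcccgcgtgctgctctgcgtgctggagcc
Pgam2, chr11:5803747-5804046, minus strand: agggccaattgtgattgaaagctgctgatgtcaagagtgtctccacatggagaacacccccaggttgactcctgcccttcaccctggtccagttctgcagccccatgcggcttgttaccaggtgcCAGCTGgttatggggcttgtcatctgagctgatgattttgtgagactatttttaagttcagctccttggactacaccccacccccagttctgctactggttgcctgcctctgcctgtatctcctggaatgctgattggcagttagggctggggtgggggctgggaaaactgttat

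Not all of a gene's TPM lay in transcripts with a complete coding sequence. Of 31 genes with counts, 17 had at least 90% of TPM in such transcripts in both pups, and 22 by counts. The same transcript led in both pups in 27 genes. No share of all genes was taken for these counts, so they are descriptions only. Besides the models above, Aldoa-210, an incomplete model of 776 nt, held 14.84% of Aldoa's TPM in pup 1 and 15.25% in pup 2. Eno3-201 held 65.2% of Eno3 in pup 1 and 62.0% in pup 2, Slc16a3-201 held 61.3% and 59.5% of Slc16a3, and Pfkfb3-205 held 51.2% and 56.5% of Pfkfb3. Below 60% in at least 1 pup were Hk2, Gapdh, Pfkfb2 and Eno2. Of these Gapdh had 33.8% of its TPM in complete coding transcripts in pup 1 and 36.3% in pup 2, Eno2 had 50.5% and 30.7%, and Pfkfb2 had 55.9% and 35.0%. Short models weigh more in TPM than in counts, since TPM divides by length.

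**Figure D3:**
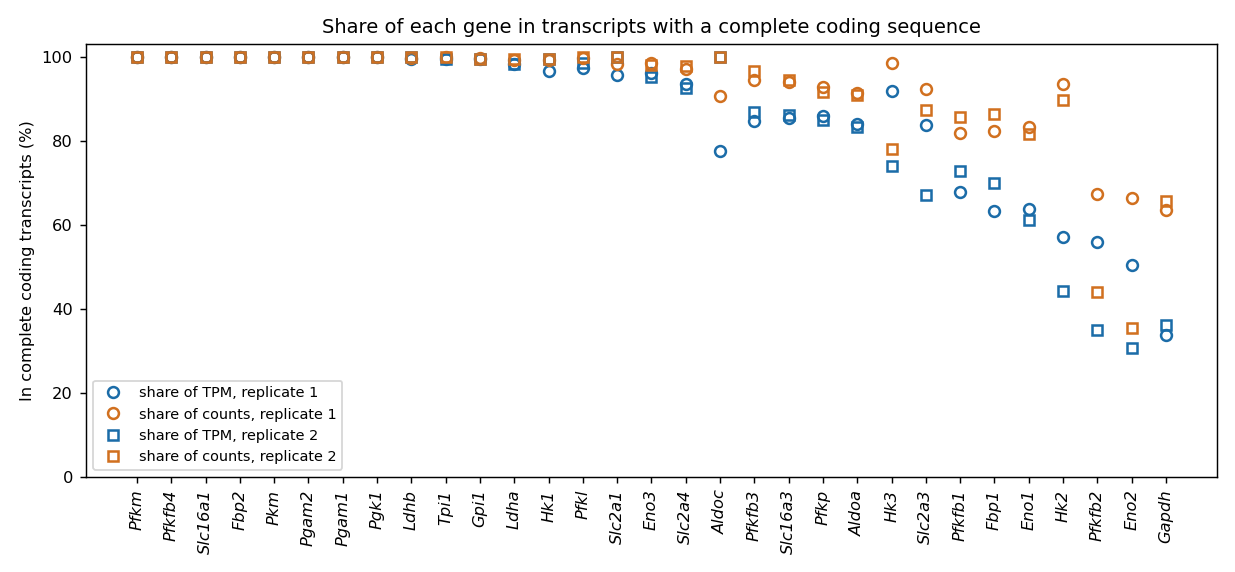
Share of each gene in transcripts annotated with a complete coding sequence (percent), by TPM (blue) and by counts (orange), for pup 1 (replicate 1, circles) and pup 2 (replicate 2, squares). Genes run from the highest to the lowest share, with 17 at or above 90% of TPM in both pups, and Gapdh, Hk2, Eno2 and Pfkfb2 at the low end.

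The pups were compared by the ratio of scaled counts of pup 1 over pup 2, as log2, in 31 of the genes, among 17020 genes with at least 10 mean counts. With 1 library each there was no test. Of the 31 genes, 2 were past 2-fold, against 6.31% of all 17020 genes, and both were higher in pup 1, as were 4.89% of all genes, while 1.42% of all were higher in pup 2. They were Pfkfb3 and Hk3. The median log2 ratio was -0.12 over the 31 genes, against 0.0017 over all genes, and the median absolute log2 ratio was 0.20, against 0.19. At least 1000 mean counts were held by 21 of the 31 genes and by 5786 of all 17020. These medians are therefore not matched for counting error. Of the 31, 12 were higher in pup 1 and 19 in pup 2, a split for which no share of all genes was taken. For 23 the 95% exact interval of counting error left out equal levels, against 45.9% of all 17020 genes. With at least 1000 mean counts it held for 17 of 21 of the genes, against 65.1% of all such genes. Past 1.5-fold were 3 genes, against 14.4% of all genes, with 2 higher in pup 1 (9.37% of all) and 1 higher in pup 2 (5.01% of all). The ratios of 6 genes change sign on the TPM scale, Pfkp, Aldoc, Pgk1, Pgam2, Ldha and Slc16a1, where the median of all genes moves to 0.15 with 0.1 TPM added.

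Pfkfb3 had 1332 counts in pup 1 and 198 in pup 2, a log2 ratio of 2.51. On counts alone it was 5.76-fold higher in pup 1, with a counting interval of 4.95 to 6.72. Hk3 had a log2 ratio of 1.05 and was 2.11-fold higher in pup 1, with an interval of 1.58 to 2.84. Fbp1 was the only one past 1.5-fold the other way, with 56 counts in pup 1 and 92 in pup 2, a log2 ratio of -0.92. Among the rest, Pfkl had a log2 ratio of 0.53, Slc2a1 of 0.51, Pgam1 of 0.50 and Hk2 of -0.34.

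**Figure D4:**
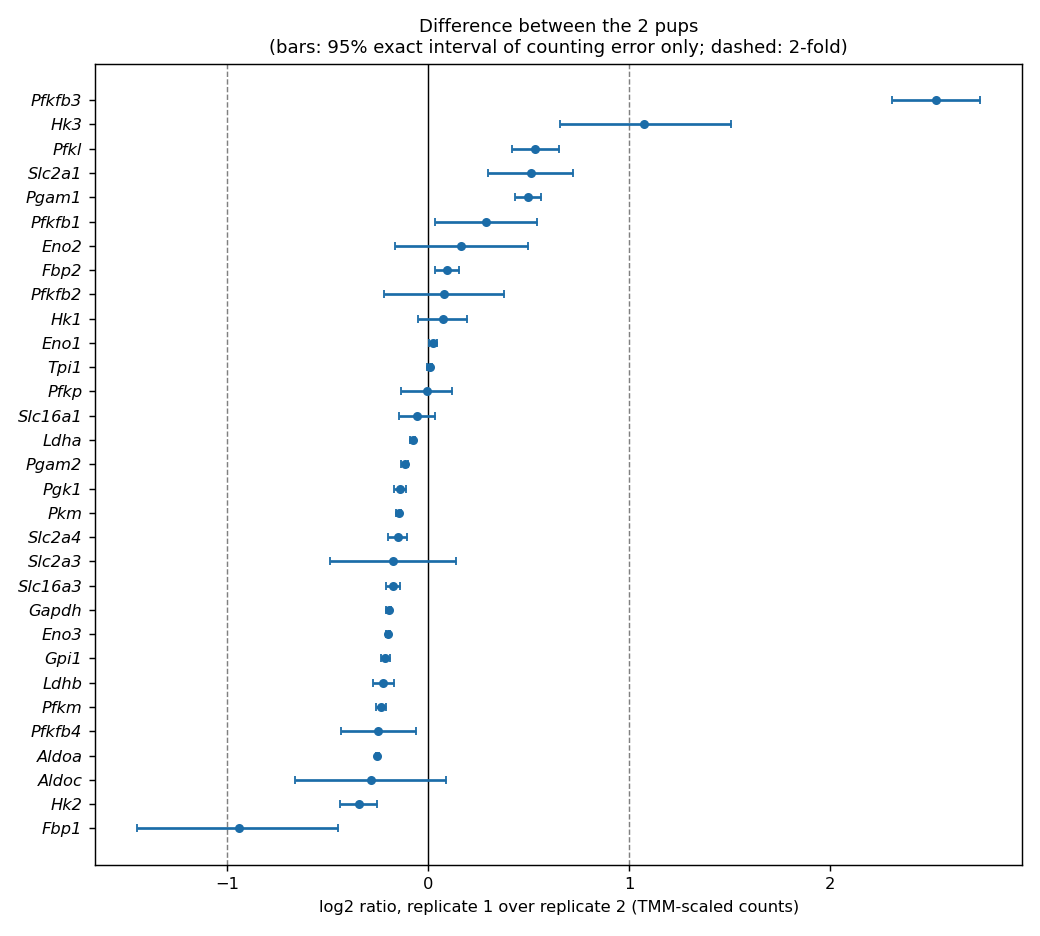
Log2 ratio of pup 1 over pup 2 for the 31 genes with counts, from TMM-scaled counts with no prior count, and its 95% exact interval of counting error (bars), with 2-fold marked by dashed lines. Pfkfb3 and Hk3 stand beyond 2-fold and are higher in pup 1, Fbp1 is lowest, and 12 of the 31 lie above 0.

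Markers of other cell types also differed between the pups. Beside Pfkfb3, all 7 adipocyte markers were higher in pup 1, by log2 ratios of 1.57 for Fabp4 to 5.08 for Cfd. All 6 epidermal markers were higher in pup 1, by 4.62 for Krt10 to 9.56 for Lor. So were all 6 cartilage markers, by 2.40 for Acan to 6.24 for Col2a1. Beside Hk3, the 8 leukocyte markers summed to 212 TPM in pup 1 and 166 in pup 2, with a median log2 ratio of 0.42 and 6 of 8 higher in pup 1. Their ratios ran from -0.12 for Lyz2 to 4.54 for Camp. The 4 mast cell markers summed to 1208 TPM in pup 1 and 650 in pup 2, with all 4 higher in pup 1. The fibre markers went the other way, with a median log2 ratio of -0.32. Endothelial markers summed to 277 TPM in pup 1 and 247 in pup 2, nerve and Schwann cell markers to 229 and 242 TPM, fibroblast markers to 7576 and 5375 TPM, and red cell markers to 6157 and 5062 TPM. Heart markers summed to 6.77 and 6.68 TPM, and liver markers to 606 and 85.7 TPM, of which Trf alone had 591 TPM in pup 1 and 64.2 in pup 2. No marker was at 0 counts in both pups. The part of these cells in the ratios of Pfkfb3 and Hk3 was not tested, and in bulk RNA more cells of a type and more RNA per cell cannot be told apart.

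The pathway's neighbours were taken from lists by name. At least 1 TPM was reached by 12495 protein-coding genes. Their share of all protein-coding genes was not taken, so the list counts here and below are descriptions only. Of 12 further enzymes, some of them other isozymes of these steps and some, such as Minpp1, Tigar and Ldhd, acting on related sugar phosphates or lactate, 6 averaged at least 1 TPM. The highest were Minpp1, a phosphatase of inositol phosphates and 2,3-bisphosphoglycerate, at 31.4 TPM in pup 1 and 23.9 in pup 2, Bpgm at 16.3 and 16.5 TPM, and Adpgk at 10.3 and 7.23 TPM. Of 15 other transporters and partners, 9 reached 1 TPM, led by Bsg and by the subunits of the mitochondrial pyruvate carrier, Mpc1 at 472 TPM in pup 1 and 460 in pup 2, and Mpc2 at 385 and 333 TPM. All 10 genes of the glycerol phosphate and malate-aspartate shuttles, which pass the electrons of cytosolic NADH to mitochondria, reached 1 TPM. Mdh2 led at 904 TPM in pup 1 and 947 in pup 2. Mdh1 followed at 786 and 793 TPM, and Got2 at 274 and 302 TPM. All 13 regulators also reached 1 TPM. Txnip led at 188 TPM in pup 1 and 194 in pup 2, before Rab10, and Mef2a at 40.6 and 39.2 TPM. The hypoxia factor Hif1a was at 23.1 TPM in pup 1 and 20.9 in pup 2.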

How the data were processed

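Total RNA of newborn skeletal muscle from 2 pups was sequenced, with 10 ng of RNA over 200 nt per library and spike-ins added, per the labels. For each pup the authors deposited a gene table and a transcript table, quantified on mm10 with GENCODE M4, per the files that accompany them. Neither the aligner nor the quantifier nor the strand setting is given in the sources used here. The authors deposited expected counts, in which shared reads are split by a model. They also deposited TPM and a posterior mean TPM. The bounds of an interval of TPM that the authors deposited, of unstated level, were treated as a score and not used. Each transcript's part of its gene's TPM is a percent, per the file headers. Every column belongs to 1 of these 2 samples, and columns of other samples numbered 0.

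GENCODE M21, matched by ID, gave the names, the biotypes and the positions. Isozyme shares are of the step's summed TPM. A complete coding transcript is one annotated as protein-coding and not as incomplete at either end. For ratios, expected counts were rounded and TMM factors taken in R 4.3.3 with edgeR 4.0.16. Log2 CPM used a prior count of 2, in genes of at least 10 mean counts. Depth was 40455042 and 37151129 counts in pups 1 and 2. No test was run, since 1 library per pup leaves edgeR's quasi-likelihood test no residual degrees of freedom and an exact sign-flip over 2 samples cannot go below p = 0.5. Counting intervals are exact Clopper-Pearson at 95%, and the floor for genes with no reads is 3 counts per library. PCR copies carry no molecular identifier here, so these limits hold for counting error alone. Near-identical copies are genes with at least 95% identity over at least 200 nt of coding sequence (BLAST+ 2.17.0). The ratio step was checked on simulated counts with known folds, with as many genes raised as lowered. In the data, 833 genes past 2-fold were higher in pup 1 and 241 in pup 2, a skew that the check does not cover.

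The rule for the 32 genes uses no measured value, but the genes, lists and limits were chosen with earlier results of these data known. Named are all 32 genes, the 3 highest of each pathway list and those at 0 counts, the Pkm splicing factors and copies with at least 5% of a gene's reads. Of the transcripts with at least 10% of a gene's TPM, which the rule also takes, only a part is printed, and marker lists are given mainly as sums. Hif1a, G6pdx, Tbc1d4, Slc2a8, Tigar and Ldhd were named after their values were seen. Size factors of DESeq2 1.42.0 were an alternative to TMM. Python 3.11.15, pandas 2.3.3, numpy 2.4.6, scipy 1.17.1 and matplotlib 3.10.9 were used.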

Additional observations from a re-analysis of the deposited data

How the results depend on the processing

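The gene that led each of the 10 steps with a common leader was the same in both pups with posterior mean TPM, with expected counts, with protein-coding transcripts, with complete coding transcripts (chosen after seeing the data) and with near-identical copies added. With n = 2, each pup's value lies within 1 SD of the mean by construction, so leaving out a pup is no check of stability. The share of Pfkfb3 in its step was 17.3% without pup 1 and 53.2% without pup 2. A ratio needs both pups. With posterior mean TPM, the mean share moved to 99.95% for Aldoa and 99.96% for Pkm, and the summed TPM of all 32 genes was 28032. With expected counts, the mean share was 99.95% for Aldoa, 93.4% for Pgam2, 94.7% for Ldha and 86.2% for Slc16a3. With protein-coding transcripts it was 51.4% for Hk2 and 99.97% for Aldoa. With complete coding transcripts it was 51.0% for Hk2, 84.7% for Eno3 and 91.9% for Slc16a3, and the summed TPM was 22939.7. These differ from the main values by construction, since reads in other models are left out. With 1 TPM added, 1 gene was past 2-fold, Pfkfb3, as Hk3 had a log2 ratio of 0.66. Over all 11 listed Slc2a genes (chosen after seeing the data), the mean share of Slc2a4 was 80.9%. At a limit of 10 TPM, 2 of the further enzymes and 3 of the other transporters passed, and at 0.1 TPM 14 of the other transporters did. No paired analysis was possible because there is only 1 group. Low counts, as in Hk3, Fbp1, Aldoc and Eno2, limit what can be said of those genes.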

Other observations

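Among the side branches of the pathway, 9 of 10 genes of the pentose phosphate and hexosamine branches averaged at least 1 TPM. The list was led by Taldo1, a transaldolase of the pentose phosphate pathway, at 257 TPM in pup 1 and 161 TPM in pup 2, with Pgls at 160 and 129 TPM and Pgd at 46.6 and 27.0 TPM. G6pdx, the entry enzyme of that pathway, was at 14.9 TPM in pup 1 and 6.56 TPM in pup 2. The median log2 ratio of pup 1 over pup 2 over the 10 genes was 0.47, against 0.0017 over all genes. Of 5 genes of gluconeogenesis, 4 reached 1 TPM. Pck1, which makes phosphoenolpyruvate and in adipocytes serves glycerol synthesis, was at 90.3 TPM in pup 1 and 4.76 TPM in pup 2, a log2 ratio of 4.12. Pcx, which makes oxaloacetate from pyruvate, was at 50.6 TPM in pup 1 and 7.79 TPM in pup 2, a log2 ratio of 2.55, and G6pc3 was at 13.9 and 10.7 TPM. The adipocyte markers summed to 4984 TPM in pup 1 and 889 TPM in pup 2, and their part in these values was not tested.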
